A study of Saccharomyces cerevisiae with 18 samples.

Results

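The Ty retrotransposon open reading frames (ORFs) of Saccharomyces cerevisiae were followed at the RNA level in strains mutated for the chromatin proteins Ioc3 and Yaf9. A gene was taken as a member when its systematic identifier is annotated in the yeast reference as a Ty Gag (TYA) or Gag-Pol (TYB) protein. The reference holds 91 such ORFs, 45 Gag and 46 Gag-Pol, and 35 of them had a row in the deposited table of 5830 genes. Of these, 33 were Gag-Pol and 2 were Gag ORFs. The Ty1 family had 21 ORFs, Ty2 had 8, Ty3 had 2 and Ty4 had 2, and the other 2, YDR170W-A and YLR035C-A, lie in no annotated element. The remaining annotated Ty ORFs were not analysed here.

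RNA-seq was done on 3 independent cultures each of 6 strains, 18 libraries in all, grown in the rich medium YPD to mid-log phase. By the labels every strain was of the BY4742 background and carried a FLAG epitope. The labels name the strains Ioc3△cHLB△Yaf9, △Ioc3△Yaf9, WT ISW1a△Yaf9, Ioc3△cHLB, △Ioc3 and WT ISW1a, and they are called ioc3ΔcHLB yaf9Δ, ioc3Δ yaf9Δ, yaf9Δ, ioc3ΔcHLB, ioc3Δ and wild type (WT) from here on. Ioc3 is the subunit that pairs with the Isw1 ATPase in the ISW1a chromatin remodeler, cHLB is a truncation of its linker-DNA-binding HLB domain, and Yaf9 is a subunit shared by the NuA4 acetyltransferase and the SWR1 remodeler.

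Ty elements are retrotransposons flanked by long terminal repeats (LTRs). Their full-length RNA starts in the 5′ LTR and serves both as messenger and as the template that is copied back into DNA. TYA encodes Gag, the protein of the virus-like particle, and TYB encodes protease, integrase, reverse transcriptase and RNase H, made as a Gag-Pol fusion when ribosomes shift frame. Ty1 and Ty2 are close relatives whose ORFs share much of their sequence, Ty4 is a rarer relative, and Ty3 belongs to the Gypsy type. Ty1, Ty2, Ty3 and Ty4 integrate near genes transcribed by RNA polymerase III, mostly tRNA genes, and Ty1 RNA is kept low in cells that express both mating-type programs.

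The shift of frame that joins TYA to TYB is annotated in 31 of the 35 ORFs, and 1 site for each family is given here because it defines what a Gag-Pol row covers. Capitals mark 7 bases at the join. The 1 base that the annotation skips lies within them in the Ty1, Ty2 and Ty4 sites and just before them in the Ty3 site. Sequences are from the RefSeq reference of build R64 (sacCer3), read 5′ to 3′ on the plus strand at chrX:474050-474074, chrII:31216-31240, chrIX:206474-206498 and chrVIII:86983-87007.
YJR027W (Ty1): cacgaccttcacCTTAGGCcaggaa
YBL100W-B (Ty2): gaacttagtCTTAGGCcagcaacag
YIL082W-A (Ty3): tagagcacgtaagGCGAGTTctaac
YHL009W-B (Ty4): aatagggaaCTTAGGCctgactcga

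The CTTAGGC heptamer was found at the join in all 19 annotated Ty1, all 8 Ty2 and both Ty4 fusions, and the GCGAGTT heptamer in both Ty3 fusions. In 29 of the 33 Gag-Pol rows the annotated Gag ORF of the element lies inside the row, so these values do not separate Gag RNA from Pol RNA. The Gag ORF lies outside the rows of YAR009C (Ty1) and YJL113W (Ty4), and none was found for YIL082W-A and YLR035C-A. Windows that are unique and also clear of an annotated Gag ORF made up, for example, 16.2% of YBL100W-B, against 23.2% for all of its unique windows. Whether the authors' gene annotation held the Gag ORFs, in which case reads in the overlap would be left out, is not given in the sources used here.

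Copies of one family are nearly alike, and this sets what a row can measure. Among the 29 Ty1 and Ty2 ORFs, 25 were at least 98% identical to their closest annotated copy, with a median identity of 99.2%. A single read can be traced to 1 copy with certainty only where its sequence occurs once in the genome. The share of each ORF's 76-base windows (the read length) that occur once had a median of 5.78%. The pairs of sequences below show how little separates a copy from its closest match elsewhere. Each has the unique window of the named ORF first and the closest other stretch of the genome after it, with capitals at the bases that differ, inserted bases included. They lie at chrIV:987549-987624 (minus strand) and chrII:34705-34777, at chrX:477644-477719 and chrII:34864-34939, and at chrII:30463-30538 and chrIII:85630-85705.
YDR261C-D (Ty1): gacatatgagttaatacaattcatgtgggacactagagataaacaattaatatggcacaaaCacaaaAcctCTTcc
YBL100W-B (Ty2), its closest match: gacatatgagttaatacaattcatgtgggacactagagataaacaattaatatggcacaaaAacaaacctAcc
YJR027W (Ty1): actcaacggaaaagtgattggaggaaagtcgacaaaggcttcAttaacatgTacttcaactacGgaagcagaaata
YBL100W-B (Ty2), its closest match: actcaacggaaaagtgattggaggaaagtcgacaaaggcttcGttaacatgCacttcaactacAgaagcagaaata
YBL100W-B (Ty2): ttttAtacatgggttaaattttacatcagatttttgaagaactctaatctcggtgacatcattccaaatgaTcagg
YCL019W (Ty2), its closest match: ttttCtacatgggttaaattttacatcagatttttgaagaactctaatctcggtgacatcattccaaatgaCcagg

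The first pair differs by 5 bases, 3 of them missing from the match, the second by 3 and the third by 2. In the first 2 pairs the closest match of a Ty1 window lies in a Ty2 ORF. YER160C and YGR027W-B had no unique 76-base window at all, although both have unique windows of 200 bases and a paired-end fragment can be longer than a read. The Ty3 ORFs YIL082W-A (48.8% unique) and YGR109W-B (48.1%), the Ty4 ORF YJL113W (36.5%) and the Gag ORF YDR170W-A (59.0%) were the best resolved. In all, 11 ORFs had more than 10% unique windows and 24 had 10% or less. Each Ty1 or Ty2 value is therefore read as a value of that row as the authors counted it, and not as the RNA of a single element.

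**Figure D1:**
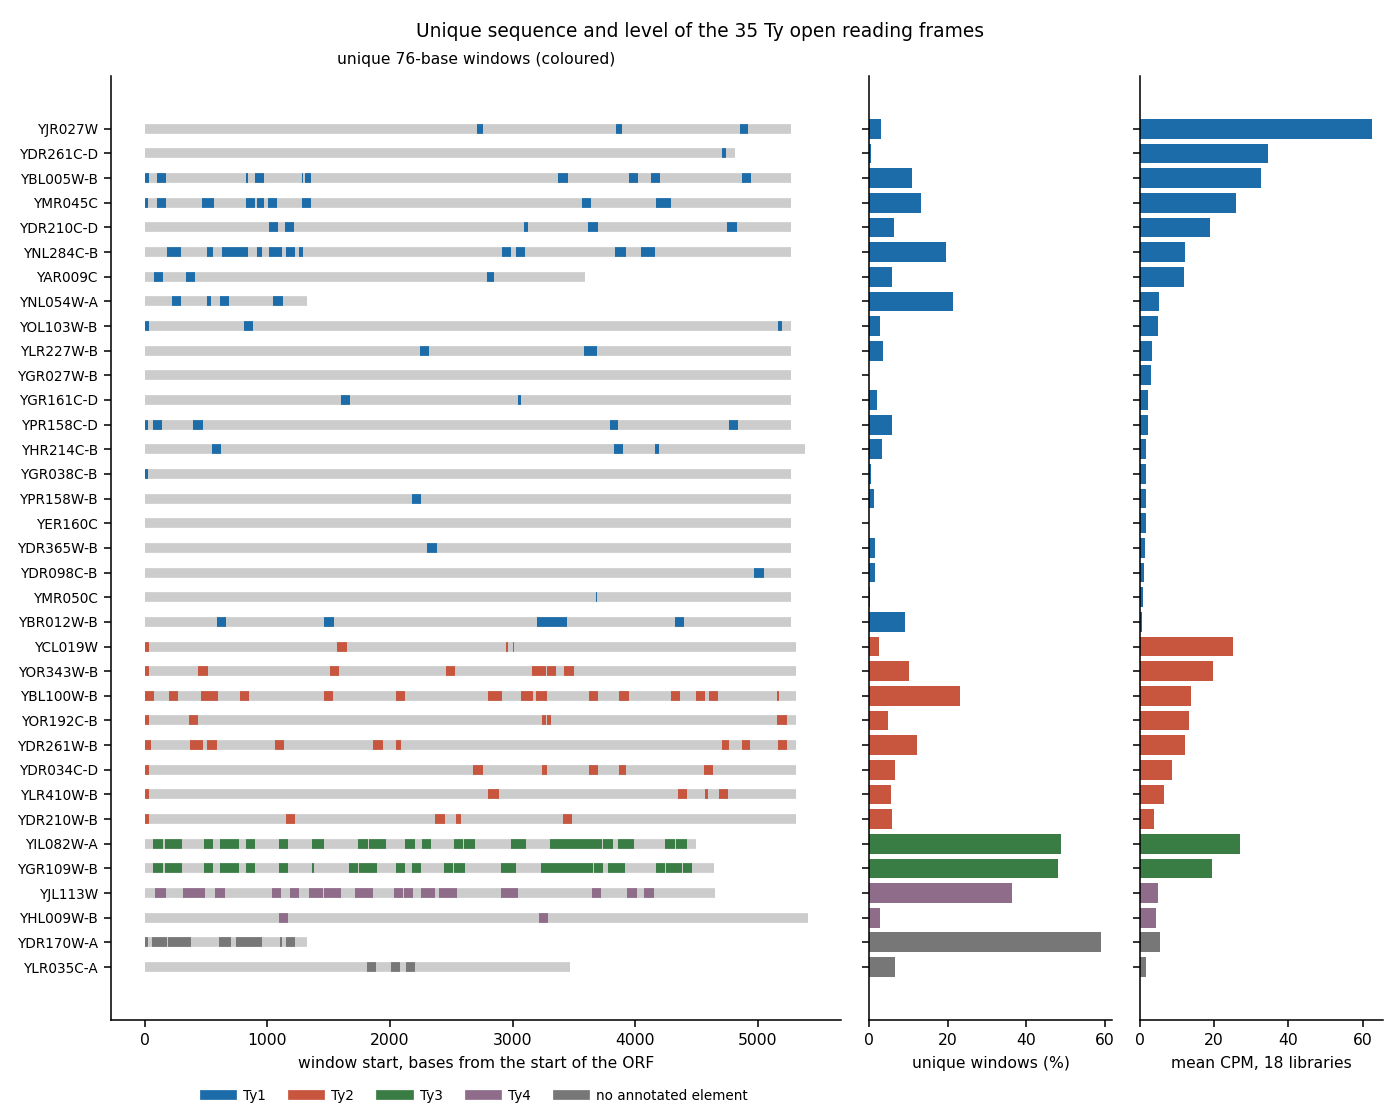
For each of the 35 Ty ORFs, grouped by family, the left panel marks unique 76-base windows along the ORF (bases from its start), the middle panel gives their share in percent and the right panel the mean CPM over 18 libraries. The Ty3 ORFs, YJL113W and YDR170W-A carry unique sequence over 36.5% to 59.0% of their windows, whereas most Ty1 and Ty2 ORFs carry it in short stretches and YJR027W reaches the highest mean with 3.04%.

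The libraries held 5145170 to 10192972 reads assigned to genes, and 1 read was worth 0.0854 to 0.2011 CPM (read counts scaled by the authors to the size of the library). Ty ORFs received 0.0297% to 0.0579% of these reads, 51719 reads in all, or 85 to 8130 reads per ORF over the 18 libraries. IOC3 was at 0 to 0.356 CPM in ioc3Δ and ioc3Δ yaf9Δ, against 38.4 to 71.2 CPM in the other strains, and YAF9 was at 0 to 0.392 CPM in the yaf9Δ strains, against 27.9 to 37.0 CPM in the others, as the labels say. The labelled background goes against the data in one respect: BY4742 is a MATα strain, but in all 18 libraries the 7 a-specific genes summed to 2061 to 3093 CPM and the 4 alpha-specific genes to 30.4 to 63.2 CPM, with the α-factor genes MFALPHA1 and MFALPHA2 at no more than 4.20 CPM. Mating type was alike in all strains by these markers, and what it means for the label could not be settled here.

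Some libraries stood apart within their strain. In ioc3ΔcHLB yaf9Δ, replicate 1, the library with the fewest reads, held the highest of all 18 values for 16 of the 33 Ty ORFs tested, or 48.5%, against 8.16% of all genes tested. In WT, replicate 3 alone held 53.9 CPM of the Ty1 ORF YLR227W-B (469 reads), against 0 to 1.02 CPM in the other 17 libraries. Where leaving 1 of them out changed a count of calls, or the median over all Ty ORFs by over 1.5 times, the value without it is given beside the result.

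Ty RNA was dominated by a few rows. YJR027W (Ty1, chrX:472760-478028, plus strand), took 15.7% of all Ty reads, and the 6 highest ORFs took 52.3%. Per kilobase of ORF, the mean level over the 18 libraries was 11.8 CPM for YJR027W, 7.14 for YDR261C-D (Ty1), 6.18 for YBL005W-B (Ty1), 5.98 for YIL082W-A (Ty3), 4.89 for YMR045C (Ty1) and 4.73 for YCL019W (Ty2). At the other end, 17 ORFs averaged under 5 CPM. Across the 35 ORFs the mean CPM and the unique share had a Spearman rho of 0.46, a description over copies that share reads (0.44 over the 21 Ty1 and -0.02 over the 8 Ty2 ORFs). A high row was thus not simply one with much unique sequence: YDR261C-D averaged 34.4 CPM with only 0.633% of its windows unique.

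Summed over each family, Ty1 and Ty2 RNA was highest in ioc3ΔcHLB yaf9Δ. The Ty1 sum was 344, 269.7 and 251 CPM in the libraries of ioc3ΔcHLB yaf9Δ, 279.6, 234 and 243 CPM in ioc3Δ yaf9Δ, 174, 173 and 172 CPM in yaf9Δ, 194, 233 and 234 CPM in ioc3ΔcHLB, 257, 191 and 249 CPM in ioc3Δ, and 184, 200.3 and 247 CPM in WT. The yaf9Δ libraries were the lowest and nearly equal, and the WT value of 247 CPM falls to 193 CPM when YLR227W-B is left out. All 3 libraries of each double mutant lay above all 3 of yaf9Δ.

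The Ty2 sum was 168, 135 and 121 CPM in ioc3ΔcHLB yaf9Δ, 108, 77.2 and 132 CPM in ioc3Δ yaf9Δ, 88.9, 84.7 and 89.7 CPM in yaf9Δ, 75.3, 94.3 and 86.0 CPM in ioc3ΔcHLB, 112, 88.9 and 145 CPM in ioc3Δ, and 72.9, 93.2 and 75.9 CPM in WT. Here ioc3ΔcHLB yaf9Δ lay above yaf9Δ, ioc3ΔcHLB and WT without overlap, while ioc3Δ and ioc3Δ yaf9Δ spread widely between replicates and overlapped with most other strains. These 2 strains deviated together by replicate number. Within the pairs the Ty2 sum was lower in ioc3Δ yaf9Δ than in ioc3Δ in 3 of 3, with a mean log2 ratio of -0.13 ± 0.07 (SD, n = 3 pairs, two-sided exact sign-flip permutation test, p = 0.25). That is the smallest p that 3 pairs allow, so this test could not decide whether the sums differ, here or for the other families.

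In fold terms, mean Ty1 RNA of ioc3ΔcHLB yaf9Δ was 1.67 times that of yaf9Δ and 1.37 times that of WT, and mean Ty2 RNA was 1.61 times and 1.75 times. Without ioc3ΔcHLB yaf9Δ replicate 1 the Ty1 folds were 1.504 and 1.24 and the Ty2 folds 1.46 and 1.59. With YLR227W-B left out, the Ty1 fold against WT was 1.49, and without that replicate as well it was 1.35.

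The Ty3 sum averaged 51.0 ± 14.6 CPM in ioc3ΔcHLB yaf9Δ, 44.1 ± 5.23 in ioc3Δ yaf9Δ, 37.6 ± 1.04 in yaf9Δ, 52.9 ± 8.06 in ioc3ΔcHLB, 49.5 ± 2.19 in ioc3Δ and 42.1 ± 2.34 in WT (SD, n = 3 each). Its order differed from that of Ty1 and Ty2, since ioc3ΔcHLB, and not ioc3ΔcHLB yaf9Δ, had the highest mean. As in Ty2, the mean of ioc3Δ was above that of ioc3Δ yaf9Δ. The Ty3 sum was 67.8, 44.6 and 40.7 CPM in the libraries of ioc3ΔcHLB yaf9Δ, with replicate 1 the highest. The Ty4 sum was low throughout, at 8.52 ± 0.65 CPM in ioc3ΔcHLB yaf9Δ, 7.68 ± 1.22 in ioc3Δ yaf9Δ, 7.33 ± 0.85 in yaf9Δ, 10.8 ± 1.75 in ioc3ΔcHLB, 11.1 ± 0.92 in ioc3Δ and 8.72 ± 1.12 in WT (SD, n = 3 each). The 3 yaf9Δ-background strains had the 3 lowest Ty4 means. Their libraries overlapped with those of WT, but all of them, at no more than 9.25 CPM, lay below those of ioc3Δ, at 10.3 CPM or more. In the pairs by replicate number the Ty4 sum was lower in ioc3Δ yaf9Δ than in ioc3Δ in 3 of 3 (mean log2 ratio -0.53 ± 0.11, SD, n = 3 pairs, same exact test, p = 0.25), as was the Ty3 sum (-0.17 ± 0.16, p = 0.25), while the Ty1 sum was lower in 1 of 3 (p = 0.5).

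**Figure D2:**
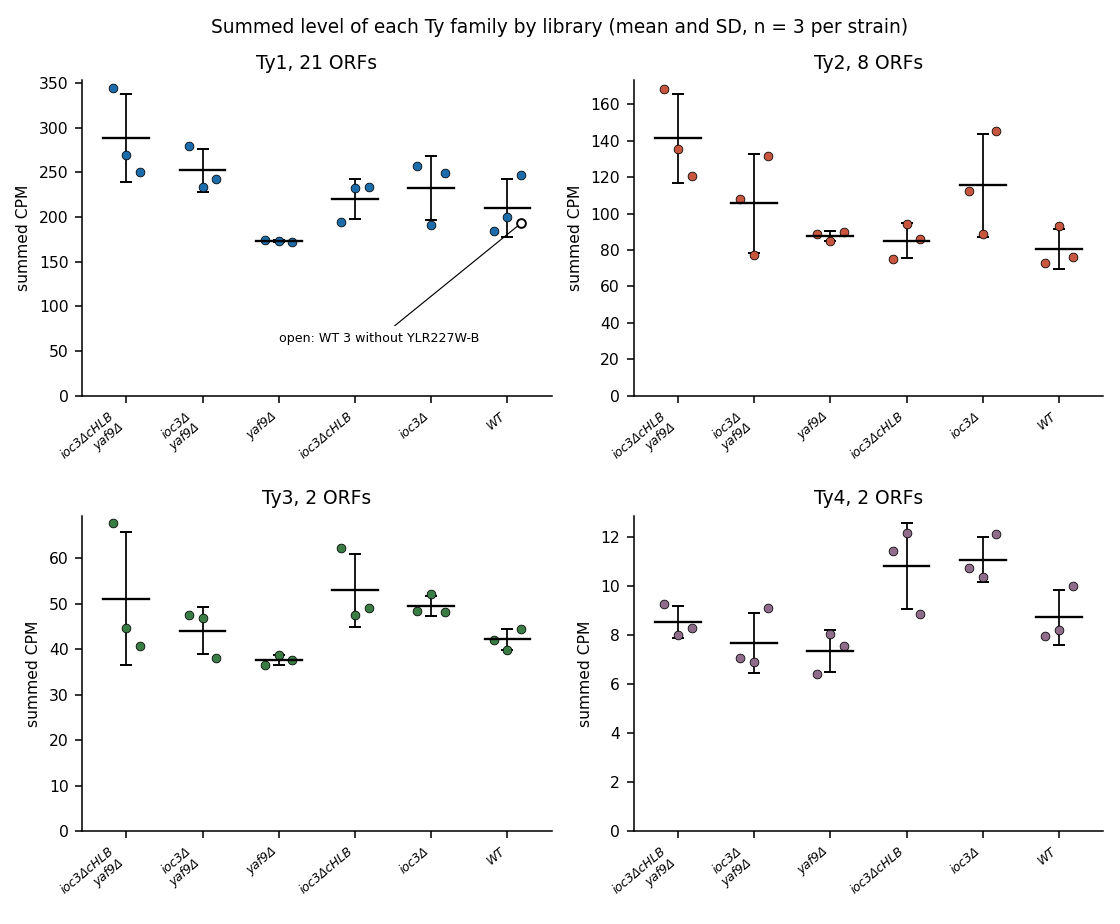
Summed CPM of the measured ORFs of each Ty family in the 18 libraries (points), with the mean and SD of the 3 replicates of each strain, and an open point for WT replicate 3 without YLR227W-B. Ty1 and Ty2 have their highest means in ioc3ΔcHLB yaf9Δ (288 and 141 CPM), Ty3 in ioc3ΔcHLB (52.9 CPM) and Ty4 in ioc3Δ (11.1 CPM).

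Differences between strains were tested with limma on log2(CPM + 1), a scale that understates the change of low rows. Of the 35 ORFs, 33 passed the filter of at least 1 CPM in at least 3 libraries, and YBR012W-B and YLR227W-B did not. An ORF was called when its Benjamini-Hochberg adjusted p over all 5786 genes tested was under 0.1 and its change at least 1.5-fold. Fold changes below are log2 values with their standard errors (SE), adjusted p-values are from limma, and the p-values measure the spread between cultures of 1 strain each.

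The comparison of ioc3ΔcHLB yaf9Δ with yaf9Δ asks what the HLB truncation does where Yaf9 is missing. Here 11 of 33 Ty ORFs (33.3%) rose, against 2% of all genes called higher. None fell, against 152 of all 5786 genes called lower. All 18 Ty ORFs with an unadjusted p under 0.05 were higher, against 571 higher of 1166 genes with such a p. The 11 called were 7 Ty1 and 4 Ty2 ORFs, and the median change was 0.43 over all Ty ORFs and 0.79 over Ty2, against -0.01 over all genes. Without overlap between the libraries of the 2 strains, 16 Ty ORFs were higher (48.5%), against 15.7% of all genes, and 1, YNL284C-B, was lower, against 16.2% of all genes.

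The Ty1 ORF YMR045C (chrXIII:357359-362627, minus strand) had 36.2, 31.9 and 33.02 CPM in ioc3ΔcHLB yaf9Δ, against 18.3, 14.5 and 16.1 CPM in yaf9Δ, a change of 1.01 ± 0.18 (adjusted p = 0.00413, limma). Its near copy YBL005W-B (chrII:221330-226598, plus strand), 99.4% identical, had 49.5, 39.9 and 35.1 CPM, against 24.7, 20.2 and 23.1 CPM in yaf9Δ, a change of 0.83 ± 0.19 (adjusted p = 0.0194, limma). These rows followed each other over the 18 libraries (Pearson r of 0.93, a description over rows that may share reads) and are not independent.

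YDR261C-D (Ty1, chrIV:987534-992349, minus strand), the second highest row per kilobase, had 58.3, 43.6 and 36.9 CPM in ioc3ΔcHLB yaf9Δ, against 23.5, 25.3 and 26.2 CPM in yaf9Δ (0.84 ± 0.14, adjusted p = 0.00302, limma). The highest row, YJR027W, had 101, 79.1 and 74.3 CPM, against 51.5, 51.5 and 50.4 CPM in yaf9Δ (0.71 ± 0.14, adjusted p = 0.0107, limma). In both, every ioc3ΔcHLB yaf9Δ library lay above every yaf9Δ library, and replicate 1 was the highest. YOL103W-B (Ty1, chrXV:118000-123268, plus strand) had the largest change, 1.21 ± 0.29 (adjusted p = 0.0244, limma), with 14.5, 7.84 and 4.66 CPM in ioc3ΔcHLB yaf9Δ, against 2.48, 3.34 and 3.09 CPM in yaf9Δ. That row is low and its 3 tested values were spread over a wide range.

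YLR410W-B (Ty2, chrXII:941483-946796, plus strand) had 14.9, 10.6 and 6.69 CPM in ioc3ΔcHLB yaf9Δ, against 4.44, 3.59 and 4.82 CPM in yaf9Δ (1.10 ± 0.28, adjusted p = 0.039, limma). YBL100W-B (Ty2, chrII:29935-35248, plus strand), the Ty2 ORF with the most unique sequence (23.2%), had 23.9, 19.8 and 20.7 CPM, against 12.5, 11.8 and 11.5 CPM in yaf9Δ (0.79 ± 0.18, adjusted p = 0.0165, limma). The replicates of YBL100W-B were tight and well apart between the strains. The other ORFs called were YAR009C (a truncated Gag-Pol) and YGR027W-B of Ty1 and YOR192C-B and YDR034C-D of Ty2, with changes of 0.73 to 0.80.

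Of the 11 calls, YBL005W-B, YBL100W-B, YDR261C-D and YMR045C were kept whichever library of the 2 strains was left out and under all alternatives run. The count was 6 without yaf9Δ replicate 1, 7 without yaf9Δ replicate 3, 7 without ioc3ΔcHLB yaf9Δ replicate 2 and 9 without ioc3ΔcHLB yaf9Δ replicate 1, and the median change without that last library was 0.35. YDR261C-D had 0.633% of its windows unique, and how its reads were assigned among copies is not given in the sources used here.

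Against WT, ioc3ΔcHLB yaf9Δ had 12 of 33 Ty ORFs higher (36.4%), against 4.1% of all genes called higher. None was lower, against 276 of all 5786 genes called lower. All 14 Ty ORFs with an unadjusted p under 0.05 were higher, against 778 higher of 1700 genes with such a p. The 12 called were 6 of 19 Ty1 and 6 of 8 Ty2 ORFs, with medians of 0.25 for Ty1 and 0.80 for Ty2. Without overlap, 16 Ty ORFs were higher (48.5%), against 13.6% of all genes, and 0 were lower, against 866 of all 5786 genes. These values use the same ioc3ΔcHLB yaf9Δ libraries as the comparison with yaf9Δ.

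YBL100W-B had the smallest adjusted p, with 23.9, 19.8 and 20.7 CPM in ioc3ΔcHLB yaf9Δ, against 9.49, 9.22 and 7.70 CPM in WT (1.196 ± 0.177, adjusted p = 0.000475, limma). YLR410W-B had 14.9, 10.6 and 6.69 CPM, against 4.47, 3.59 and 3.45 CPM in WT (1.22 ± 0.28, adjusted p = 0.00986, limma). For both, the lowest ioc3ΔcHLB yaf9Δ library was above the highest WT library. YDR261W-B (Ty2, chrIV:981462-986775, plus strand) had 26.5, 13.7 and 16.4 CPM, against 6.56, 11.5 and 7.82 CPM in WT (1.03 ± 0.33, adjusted p = 0.0499, limma). YOR192C-B (Ty2, chrXV:704419-709732, minus strand) had 27.5, 17.97 and 13.5 CPM, against 8.23, 11.9 and 8.51 CPM in WT (0.93 ± 0.25, adjusted p = 0.0216, limma). In these ORFs replicate 1 of the mutant stood far above replicates 2 and 3.

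Among Ty1 ORFs, YGR027W-B (chrVII:536057-541325, plus strand) had 3.82, 4.25 and 4.95 CPM in ioc3ΔcHLB yaf9Δ, against 2.37, 1.28 and 2.30 CPM in WT (0.86 ± 0.20, adjusted p = 0.0115, limma). It is 1 of the ORFs with no unique 76-base window and rests on 10 to 38 reads per library. YMR045C had 36.2, 31.9 and 33.02 CPM, against 17.6, 22.5 and 17.7 CPM in WT (0.78 ± 0.18, adjusted p = 0.0096, limma). YOL103W-B, with 14.5, 7.84 and 4.66 CPM, against 3.35, 5.25 and 3.45 CPM in WT, was called although the libraries overlapped (0.89 ± 0.29, adjusted p = 0.0505, limma). YJR027W rose by 0.70 ± 0.14, YDR261C-D by 0.72 ± 0.14 and YBL005W-B by 0.72 ± 0.19. The Ty2 ORFs YDR034C-D (0.66 ± 0.23) and YDR210W-B (0.66 ± 0.24) had the smallest called changes. Both calls were lost when any 1 of the 3 ioc3ΔcHLB yaf9Δ libraries or WT replicate 1 was left out, that of YDR034C-D also without WT replicate 3 and that of YDR210W-B without WT replicate 2.

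Without ioc3ΔcHLB yaf9Δ replicate 1 the count was 6 instead of 12 and the median change 0.26, without WT replicate 3 the count was 9, and without both it was 5. YBL100W-B, YLR410W-B and YMR045C were kept in every fit run, these included. The a-specific sum was 2759 to 3021 CPM in ioc3ΔcHLB yaf9Δ, against 2061 to 2566 CPM in WT, and its part in these values was not tested.

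**Figure D3:**
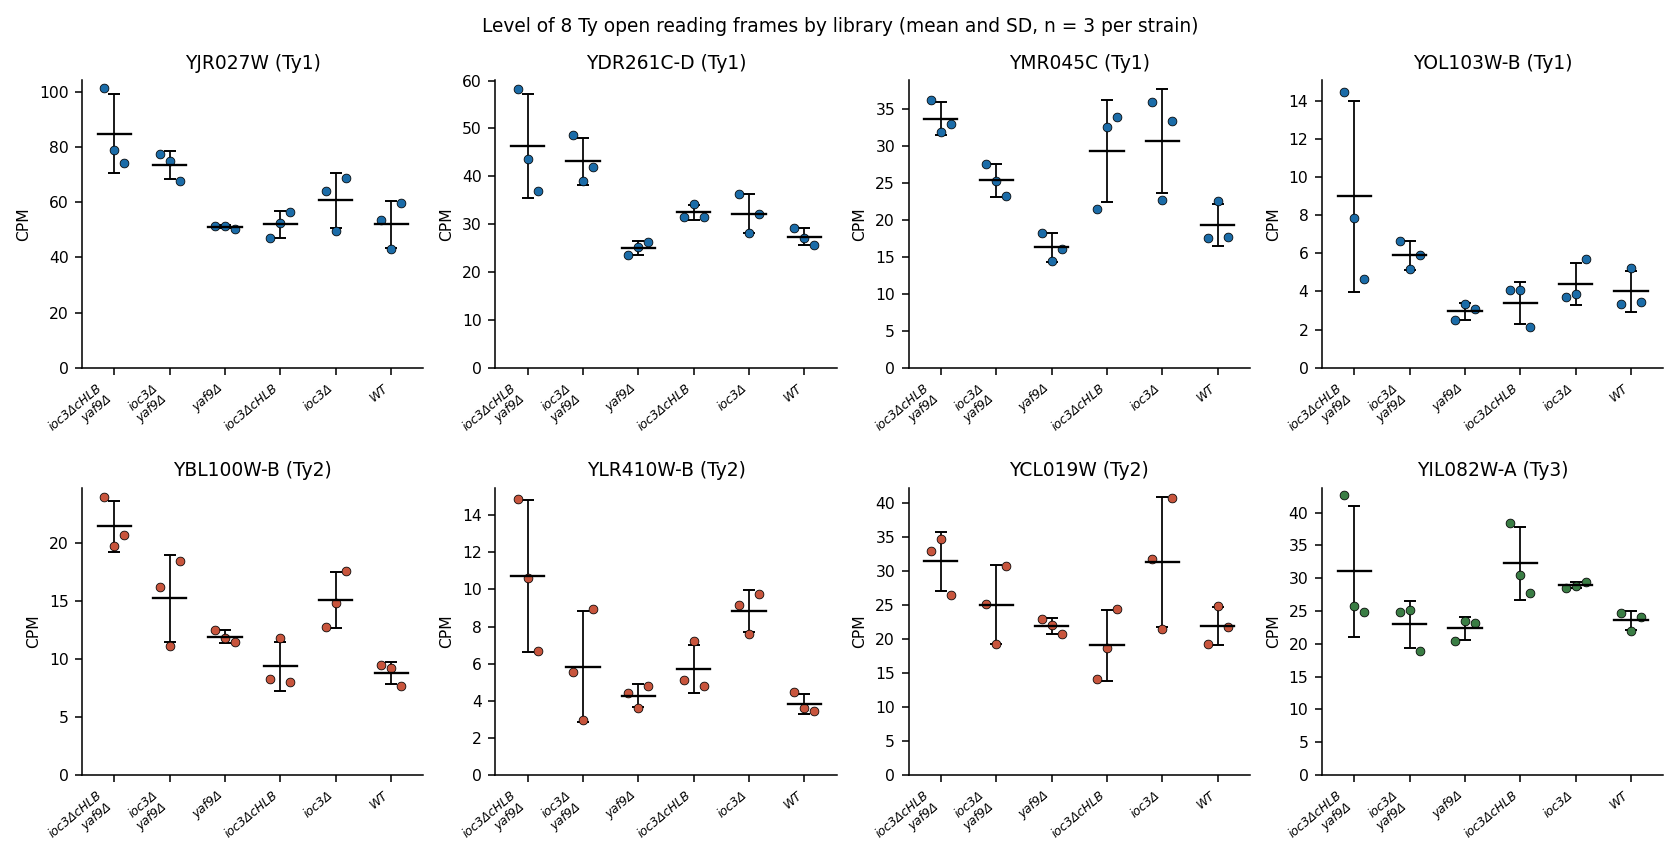
CPM of 8 Ty ORFs (4 of Ty1, 3 of Ty2 and 1 of Ty3) in the 18 libraries, with points for libraries and lines for the mean and SD of the 3 replicates of each strain. In YJR027W, YDR261C-D and YBL100W-B the 3 ioc3ΔcHLB yaf9Δ libraries lie above all 3 of yaf9Δ and of WT, and in YOL103W-B and YLR410W-B replicate 1 of that strain is far above the others.

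**Figure D4:**
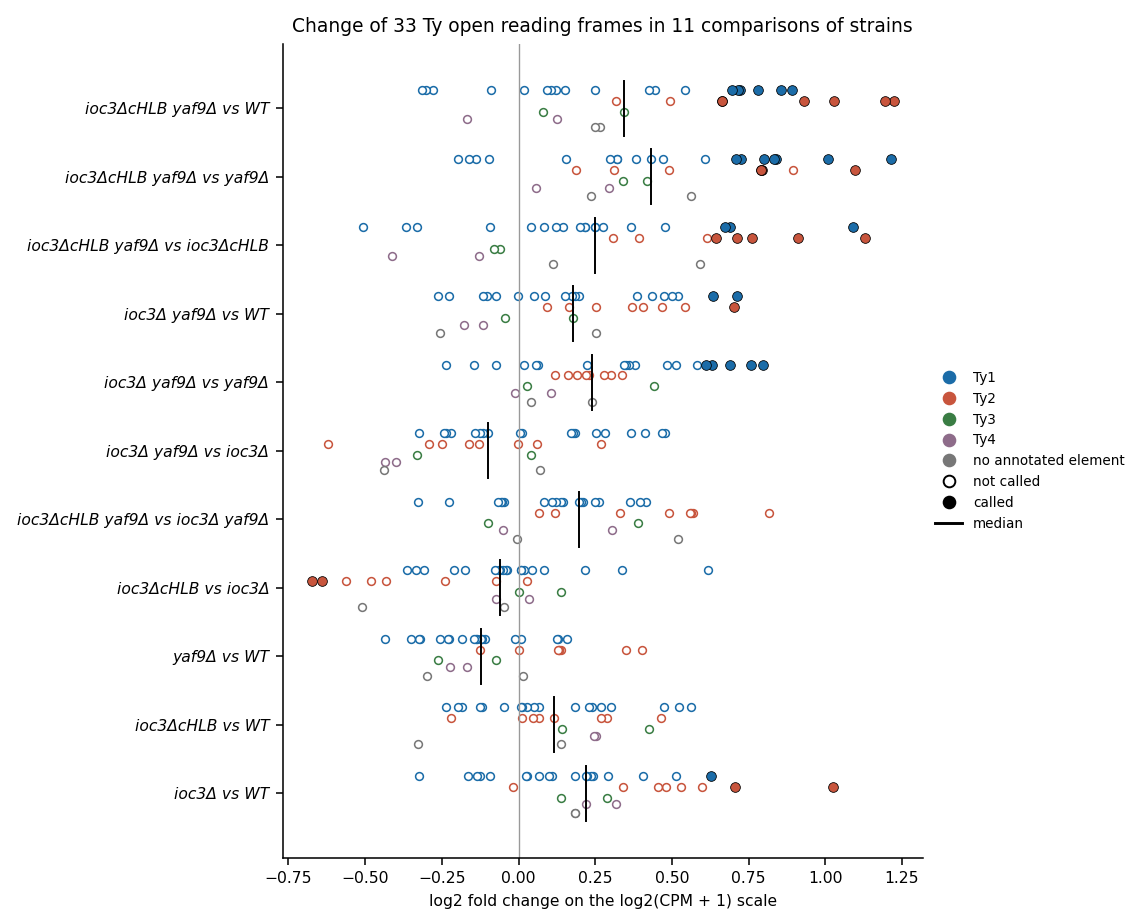
log2 change on the log2(CPM + 1) scale of the 33 tested Ty ORFs in the 11 comparisons of strains, coloured by family, with filled points for called ORFs and a bar at the median. ioc3ΔcHLB yaf9Δ has 12 filled points against WT, 11 against yaf9Δ and 8 against ioc3ΔcHLB, all of Ty1 or Ty2 and all higher, and the only filled points on the lower side are the 2 Ty2 ORFs of ioc3ΔcHLB against ioc3Δ.

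Against ioc3ΔcHLB, which carries the same truncation with Yaf9 present, ioc3ΔcHLB yaf9Δ had 8 of 33 Ty ORFs higher (24.2%), against 3.85% of all genes called higher. None was lower, against 293 of all 5786 genes called lower. Of 12 Ty ORFs with an unadjusted p under 0.05, 11 were higher and YJL113W, a Ty4 ORF, was lower. Of 1663 genes with such a p, 752 were higher. Without overlap, 12 Ty ORFs were higher (36.4%), against 761 of all 5786 genes, and 2 were lower, against 850 of all genes. The 2 lower were the Ty1 ORFs YNL284C-B (19.5% unique windows) and YNL054W-A (21.4%). The called Ty1 ORFs had 3.04% unique windows or less. The 8 called were 3 Ty1 and 5 Ty2 ORFs. YBL100W-B had 23.9, 19.8 and 20.7 CPM in ioc3ΔcHLB yaf9Δ, against 8.26, 11.8 and 8.03 CPM in ioc3ΔcHLB (1.129 ± 0.177, adjusted p = 0.000829, limma). YCL019W (Ty2, chrIII:85102-90415, plus strand) had 32.98, 34.8 and 26.5 CPM, against 14.1, 18.7 and 24.5 CPM in ioc3ΔcHLB (0.71 ± 0.22, adjusted p = 0.0423, limma). YOL103W-B had 14.5, 7.84 and 4.66 CPM, against 4.06, 4.05 and 2.14 CPM in ioc3ΔcHLB (1.09 ± 0.29, adjusted p = 0.0214, limma). In all of these the libraries of the strains did not overlap. YJR027W rose by 0.69 ± 0.14, YGR027W-B by 0.67 ± 0.20, YDR261W-B by 0.91 ± 0.33, YLR410W-B by 0.76 ± 0.28 and YOR192C-B by 0.64 ± 0.25. Without replicate 1 of ioc3ΔcHLB yaf9Δ or replicate 3 of ioc3ΔcHLB the count was 4, and without replicate 2 of ioc3ΔcHLB yaf9Δ or replicate 1 of ioc3ΔcHLB it was 5. YBL100W-B and YOL103W-B were kept in every fit that left out 1 library. The a-specific sum was 2759 to 3021 CPM in ioc3ΔcHLB yaf9Δ, against 2188 to 2565 CPM in ioc3ΔcHLB, and its part in these values was not tested.

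The comparison of ioc3Δ yaf9Δ with yaf9Δ asks the same of a full loss of Ioc3. Here 5 of 33 Ty ORFs rose (15.2%), all of them Ty1, against 3.53% of all genes called higher. None fell, against 357 of all 5786 genes called lower. All 10 Ty ORFs with an unadjusted p under 0.05 were higher, against 753 higher of 1722 genes with such a p. Without overlap, 9 (27.3%) were higher, against 20% of all genes, and 0 were lower, against 1319 of all 5786 genes. YDR261C-D had 48.5, 38.9 and 41.8 CPM in ioc3Δ yaf9Δ, against 23.5, 25.3 and 26.2 CPM in yaf9Δ (0.76 ± 0.14, adjusted p = 0.00253, limma). YAR009C (chrI:160597-164187, minus strand) had 16.6, 11.4 and 14.2 CPM, against 9.01, 8.55 and 7.29 CPM in yaf9Δ (0.69 ± 0.18, adjusted p = 0.0214, limma). YMR045C had 27.6, 25.3 and 23.2 CPM, against 18.3, 14.5 and 16.1 CPM in yaf9Δ (0.61 ± 0.18, adjusted p = 0.0345, limma). The 2 strains did not overlap in any of these ORFs. YBL005W-B rose by 0.63 ± 0.19 and YOL103W-B by 0.80 ± 0.29, and the call of YOL103W-B was lost whichever of the 6 libraries was left out. YJR027W, with 77.6, 75.0 and 67.7 CPM, against 51.5, 51.5 and 50.4 CPM in yaf9Δ, passed the adjusted p (0.0282, limma) but not the fold (0.51 ± 0.14). None of the 8 Ty2 ORFs was called or had an unadjusted p under 0.05 (limma), against 1722 of all 5786 genes with such a p. The Ty2 median was 0.23, with all 8 positive. Without ioc3Δ yaf9Δ replicate 1 only YDR261C-D was called, and without yaf9Δ replicate 2 the count was 3.

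Against WT, ioc3Δ yaf9Δ had 3 of 33 Ty ORFs higher (9.09%), against 5.95% of all genes called higher. None was lower, against 369 of all 5786 genes called lower. All 8 Ty ORFs with an unadjusted p under 0.05 were higher, against 792 higher of 1750 genes with such a p. YBL100W-B had 16.2, 11.1 and 18.4 CPM in ioc3Δ yaf9Δ, against 9.49, 9.22 and 7.70 CPM in WT (0.70 ± 0.18, adjusted p = 0.0108, limma). YDR261C-D had 48.5, 38.9 and 41.8 CPM, against 29.2, 27.1 and 25.6 CPM in WT (0.63 ± 0.14, adjusted p = 0.00525, limma). YGR027W-B had 5.16, 2.97 and 3.56 CPM, against 2.37, 1.28 and 2.30 CPM in WT (0.71 ± 0.20, adjusted p = 0.0232, limma). In each the libraries did not overlap, but no call survived the loss of every library. The calls of YDR261C-D and YGR027W-B were lost without ioc3Δ yaf9Δ replicate 1, that of YBL100W-B without replicate 3, and that of YGR027W-B also without WT replicate 2, and over the fits that left out 1 library the count ran between 2 and 4, with 4 without WT replicate 3. The a-specific sum was 2543 to 2913 CPM in ioc3Δ yaf9Δ, against 2061 to 2566 CPM in WT, and its part in these values was not tested.

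The double mutants were also compared with each other. Between ioc3ΔcHLB yaf9Δ and ioc3Δ yaf9Δ no Ty ORF was called by limma, against 4.8% of all genes called in either direction. At an unadjusted p under 0.05 there were 6, all higher in ioc3ΔcHLB yaf9Δ, against 1347 of all 5786 genes, 707 of them higher. Of the Ty ORFs, edgeR called 0 and DESeq2 called 1. The median was 0.20 over all Ty ORFs and 0.53 over the 8 Ty2 ORFs, all of them positive. Without ioc3ΔcHLB yaf9Δ replicate 1 the median over all Ty ORFs was 0.07 and none was called. YLR410W-B had 14.9, 10.6 and 6.69 CPM in ioc3ΔcHLB yaf9Δ, against 5.57, 2.97 and 8.96 CPM in ioc3Δ yaf9Δ, the smallest adjusted p of this comparison (0.82 ± 0.28, adjusted p = 0.103, limma). Without ioc3Δ yaf9Δ replicate 3, in which Ty2 rows were high, the count was 4.

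Against WT, fewer Ty ORFs were called in each single mutant than the 12 of ioc3ΔcHLB yaf9Δ, but ioc3Δ had as many as ioc3Δ yaf9Δ. In ioc3Δ, 3 of 33 Ty ORFs were higher than in WT (9.09%), close to the 9.04% of all genes called higher, and 5 (15.2%) were higher without overlap, against 19.6% of all genes. YLR410W-B had 9.17, 7.60 and 9.78 CPM in ioc3Δ, against 4.47, 3.59 and 3.45 CPM in WT (1.03 ± 0.28, adjusted p = 0.0201, limma). YBL100W-B had 12.7, 14.9 and 17.6 CPM, against 9.49, 9.22 and 7.70 CPM in WT (0.71 ± 0.18, adjusted p = 0.013, limma). YMR045C had 36.0, 22.7 and 33.4 CPM, against 17.6, 22.5 and 17.7 CPM in WT (0.63 ± 0.18, adjusted p = 0.0236, limma). The Ty2 ORFs are the clearest here, since YMR045C in ioc3Δ replicate 2 nearly met the highest WT library. The median change was 0.51 over Ty2 and 0.11 over Ty1. The count was 8 without ioc3Δ replicate 2 and 2 without WT replicate 3, and the call of YMR045C was lost without replicate 1 or 3 of either strain. The alpha-specific sum was 54.1 to 63.2 CPM in ioc3Δ, against 30.4 to 45.6 CPM in WT, with the a-factor receptor gene STE3 at 9.40 to 14.0 CPM, against 0.920 to 1.67 CPM in WT, while the a-specific sum was 2192 to 2360 CPM, against 2061 to 2566 CPM in WT. Its part in the Ty values was not tested.

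In ioc3ΔcHLB, no Ty ORF was called against WT by limma, edgeR or DESeq2, against 0.346% of all genes called in either direction. The median was 0.12. At an unadjusted p under 0.05 there were 3, all higher, against 330 of all 5786 genes, 226 of them higher. The 3 Ty ORFs were YMR045C (0.56 ± 0.18, adjusted p = 0.37, limma), its near copy YBL005W-B and the Ty3 ORF YIL082W-A. The alpha-specific sum was 37.3 to 56.7 CPM in ioc3ΔcHLB, against 30.4 to 45.6 CPM in WT. STE3 had 6.76 to 7.49 CPM, against 0.920 to 1.67 CPM in WT, and was higher (1.83 ± 0.29, adjusted p = 0.00869, limma). The a-specific sum was 2188 to 2565 CPM in ioc3ΔcHLB, against 2061 to 2566 CPM in WT. Their part in the Ty values was not tested. In yaf9Δ, no Ty ORF was called against WT by limma, edgeR or DESeq2, against 7.52% of all genes called in either direction. At an unadjusted p under 0.05 there were 2, YDR210C-D lower and YBL100W-B higher, against 1515 of all 5786 genes. The median was -0.14 over the 19 Ty1 ORFs, 15 of which were negative, and 0.13 over the 8 Ty2 ORFs, 7 of which were positive. The a-specific sum was 2965 to 3093 CPM in yaf9Δ, against 2061 to 2566 CPM in WT, and its part in these values was not tested.

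Between the single Ioc3 mutants, ioc3ΔcHLB had 2 of 33 Ty ORFs lower than ioc3Δ (6.06%), against 7.57% of all genes called lower. Both were Ty2. YBL100W-B had 8.26, 11.8 and 8.03 CPM in ioc3ΔcHLB, against 12.7, 14.9 and 17.6 CPM in ioc3Δ (-0.64 ± 0.18, adjusted p = 0.0231, limma). YCL019W had 14.1, 18.7 and 24.5 CPM, against 31.8, 21.5 and 40.7 CPM in ioc3Δ (-0.67 ± 0.22, adjusted p = 0.0501, limma), with overlap. Both calls were lost without ioc3Δ replicate 3 or ioc3ΔcHLB replicate 1, and 1 of them without ioc3Δ replicate 1, ioc3ΔcHLB replicate 2 or ioc3ΔcHLB replicate 3. Between ioc3Δ yaf9Δ and ioc3Δ no Ty ORF was called by limma, against 13.4% of all genes called in either direction. At an unadjusted p under 0.05 there were 5 (2 higher), against 2168 of all 5786 genes (936 higher). Of the Ty ORFs, edgeR called 2 and DESeq2 called 0. Without ioc3Δ yaf9Δ replicate 2 or replicate 3 the count called by limma was 2.

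Whether the Ioc3 mutations acted differently with and without Yaf9 was tested as an interaction. For ioc3Δ and yaf9Δ no Ty ORF was called by limma, edgeR or DESeq2, against 9.38% of all genes called in either direction. At an unadjusted p under 0.05 there were 2, against 1439 of all 5786 genes. For ioc3ΔcHLB and yaf9Δ none was called by limma, edgeR or DESeq2, against 0.121% of all genes called in either direction. The median interaction over the Ty ORFs was 0.36, with 28 of 33 positive. There were 7 at an unadjusted p under 0.05, against 361 of all 5786 genes. The smallest adjusted p was 0.349 (limma), of YOL103W-B (1.41 ± 0.41) and YJR027W (0.70 ± 0.20). A larger Ty change from the truncation in the absence of Yaf9 was therefore not shown by this test, and a p that misses the threshold does not show that the changes were equal.

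Across the strains, 20 of the 33 tested ORFs had their highest mean in ioc3ΔcHLB yaf9Δ (60.6%, against 16.2% of all genes), and 15 had their lowest mean in yaf9Δ (45.5%, against 19.1%). Without ioc3ΔcHLB yaf9Δ replicate 1, 13 had their highest mean in that strain (39.4%, against 20.5% of all genes). None had its highest mean in yaf9Δ. In all, 14 of the 33 ORFs (42.4%), 7 of Ty1 and 7 of Ty2, were called higher in at least 1 of the 11 comparisons of strains, against 21.6% of all genes. These comparisons share libraries.

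What these 14 share was described by count. Among the tested Ty1 and Ty2 ORFs, 11 of 15 that averaged at least 5 CPM were called higher at least once (73.3%, against 20.3% of all genes at that level), and 3 of 12 that averaged less (25%, against 34.7%). By unique sequence the counts were 4 of 7 ORFs with more than 10% unique windows and 10 of 20 with 10% or less. By position they were 10 of 20 for elements within 1000 bp of a tRNA gene and 4 of 7 for those farther away. Most of the called ORFs averaged at least 5 CPM, and the shares called were close by unique sequence and by position.

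The Ty3 and Ty4 ORFs and the 2 ORFs of no annotated element were called in none of the 13 comparisons and interactions by limma, edgeR or DESeq2. An unadjusted p under 0.05 was found in 11 of their 78 tests (limma). Of all 5786 genes, 330 to 2168 had such a p in a comparison or interaction. YIL082W-A (Ty3, chrIX:205635-210132, plus strand, its element 18 bp from a tRNA gene) had 42.6, 25.8 and 24.9 CPM in ioc3ΔcHLB yaf9Δ, 24.9, 25.2 and 18.9 in ioc3Δ yaf9Δ, 20.4, 23.5 and 23.2 in yaf9Δ, 38.5, 30.5 and 27.8 in ioc3ΔcHLB, 28.5, 28.9 and 29.5 in ioc3Δ, and 24.7, 21.9 and 24.1 in WT. YGR109W-B (Ty3, chrVII:707610-712254, plus strand, its element 16 bp from a tRNA gene) had 25.1, 18.8 and 15.9 CPM in ioc3ΔcHLB yaf9Δ, 22.6, 21.6 and 19.1 in ioc3Δ yaf9Δ, 16.2, 15.1 and 14.5 in yaf9Δ, 23.7, 17.1 and 21.1 in ioc3ΔcHLB, 19.8, 23.2 and 18.7 in ioc3Δ, and 17.3, 17.9 and 20.4 in WT. The 3 libraries of ioc3ΔcHLB, ioc3Δ and ioc3ΔcHLB yaf9Δ each lay above WT for YIL082W-A, by 0.29 to 0.42, which passed no adjusted threshold, while YGR109W-B was lowest in yaf9Δ.

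The Ty4 ORFs had few reads. YHL009W-B (chrVIII:85909-91318, plus strand) had 2.97 to 6.01 CPM over the 18 libraries and YJL113W (chrX:198678-203325, plus strand) had 3.26 to 8.18 CPM. The highest YJL113W values were 8.18 CPM in ioc3Δ replicate 3 and 7.40 CPM in ioc3ΔcHLB replicate 2. In ioc3Δ yaf9Δ YJL113W had 3.94, 3.91 and 4.66 CPM, against 5.48, 4.70 and 8.18 CPM in ioc3Δ, without overlap, but was not called (-0.43 ± 0.19, adjusted p = 0.107, limma). The Gag ORF YDR170W-A (chrIV:803195-804517, plus strand) had 3.79 to 7.27 CPM and YLR035C-A (chrXII:215440-218907, minus strand) 0.619 to 2.49 CPM. The only Ty1 Gag row, YNL054W-A, had 2.73 to 9.50 CPM and was not called in any comparison.

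Over the 13 comparisons and interactions, 7.86% of the tests of all genes were called in either direction. Among host genes that act on Ty elements, a list of 21 genes for transcription factors and coactivators of Ty promoters had 6 calls in 273 tests (2.2%). Of this list, only TYE7, a bHLH activator of glycolytic genes and Ty1, was called in ioc3ΔcHLB yaf9Δ against yaf9Δ or WT. It had 191, 112 and 121 CPM in ioc3ΔcHLB yaf9Δ, against 221, 220.7 and 199 CPM in yaf9Δ and 202, 218 and 217 CPM in WT. It was lower than in yaf9Δ (-0.63 ± 0.19, adjusted p = 0.0689, limma) and than in WT (-0.62 ± 0.19, adjusted p = 0.0395, limma), and replicate 1 lay just below the lowest yaf9Δ library. GCR1, whose product binds Ty1 and glycolytic promoters, had 119.7, 113 and 94.3 CPM in ioc3Δ yaf9Δ, against 65.9, 77.3 and 67.9 CPM in yaf9Δ, and was higher (0.62 ± 0.12, adjusted p = 0.00276, limma). In ioc3ΔcHLB yaf9Δ it had 93.7, 104.5 and 98.8 CPM, above every library of yaf9Δ and of WT (76.3, 77.0 and 79.8 CPM), but was not called against either. In ioc3Δ it had 104, 123 and 123 CPM, also above every WT library, but was not called against WT. In ioc3ΔcHLB, against ioc3Δ, GCR1 was lower (-0.62 ± 0.12) and TEC1, the partner of Ste12 at Ty1, higher (0.61 ± 0.11). In ioc3Δ, against WT, the repressor gene MOT3 was lower (-0.63 ± 0.26, adjusted p = 0.0923, limma). No other gene of this list was called by limma in the 13 comparisons and interactions, and its median change ran from -0.13 to 0.21.

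A list of 16 genes known from screens as regulators of Ty1 transposition had 4 calls in 208 tests (1.92%). Of these, SGS1, a RecQ helicase gene, had 19.7, 21.6 and 21.4 CPM in ioc3ΔcHLB yaf9Δ and 19.3, 22.0 and 20.5 CPM in ioc3Δ yaf9Δ, against 31.4, 36.1 and 38.8 CPM in WT. Against WT, SGS1 was lower in both double mutants (-0.73 ± 0.15, adjusted p = 0.00441, and -0.75 ± 0.15, adjusted p = 0.0025, limma). In yaf9Δ it had 25.3, 21.1 and 26.6 CPM, also below every WT library, but was not called. The double mutants were not called against yaf9Δ for SGS1. RRM3, a helicase gene, was lower in ioc3Δ yaf9Δ against WT (-0.66 ± 0.11) and in ioc3ΔcHLB yaf9Δ against ioc3ΔcHLB (-0.60 ± 0.11). The other genes of this list were not called by limma. None of the 20 measured genes of a list for Ty RNA, particle and integration factors was called by limma in the 13 comparisons and interactions. There were 2 calls by edgeR and 1 by DESeq2. An unadjusted p under 0.05 was found in 48 of 260 tests. Of all 5786 genes, 330 to 2168 had such a p in a comparison or interaction.

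The 300 bases around the ORF start, 250 before and 50 after, are shown for the highest Ty1 row, for the Ty2 row with the smallest adjusted p and for a Ty3 ORF, because the promoter of a Ty element lies in its LTR and just inside it. Motifs were searched on both strands, with TATAAA standing for the TATA box and CTTCC for a site of the activator Gcr1. For Tec1 the letters were CATTCC and, as the other form, CATTCT. For its partner Ste12 they were TGAAACA. For Gcn4, the activator of amino acid synthesis genes, they were TGACTC. Capitals mark every match of these motifs, which reads as the reverse complement where it lies on the other strand, and no pair of them overlaps in these windows. Matches of a looser Mcm1 pattern, counted further on, are left in lower case. They lie on the plus strand at chrX:472510-472809, chrII:29685-29984 and chrIX:205385-205684.
YJR027W (Ty1): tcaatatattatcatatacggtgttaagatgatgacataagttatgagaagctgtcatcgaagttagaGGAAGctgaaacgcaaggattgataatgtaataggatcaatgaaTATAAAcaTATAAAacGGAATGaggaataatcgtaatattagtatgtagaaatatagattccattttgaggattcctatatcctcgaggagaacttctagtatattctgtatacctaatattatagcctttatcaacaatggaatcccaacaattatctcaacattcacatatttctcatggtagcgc
YBL100W-B (Ty2): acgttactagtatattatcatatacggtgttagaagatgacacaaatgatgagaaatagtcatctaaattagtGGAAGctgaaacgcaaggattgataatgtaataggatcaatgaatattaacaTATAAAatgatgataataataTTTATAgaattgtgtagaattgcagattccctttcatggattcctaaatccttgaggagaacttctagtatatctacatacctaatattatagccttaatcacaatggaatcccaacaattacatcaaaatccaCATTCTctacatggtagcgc
YIL082W-A (Ty3): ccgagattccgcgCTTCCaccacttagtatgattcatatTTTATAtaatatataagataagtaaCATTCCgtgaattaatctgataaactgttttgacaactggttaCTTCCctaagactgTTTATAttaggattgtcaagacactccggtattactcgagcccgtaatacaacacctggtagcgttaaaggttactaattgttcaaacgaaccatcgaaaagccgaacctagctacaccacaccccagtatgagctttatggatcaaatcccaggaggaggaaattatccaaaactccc

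The Ty1 and Ty2 windows share long stretches and carry a GGAAG and TATAAA in like order. Over the 35 ORFs, a TATA box was found in 32 windows (91.4%), against 44.4% of the windows of 5910 other genes, Gcr1 in 33 (94.3%, against 45.7%), Tec1 in 21 (60%, against 27.7%), Ste12 in 8 (22.9%, against 7.26%) and Gcn4 in none, against 8.10%. The loose Mcm1 pattern (CC and GG with 6 bases between) was found in 17 (48.6%, against 28.9%). These matches describe letters only, and most windows of Ty1, Ty2 and Ty3 resemble each other within their family (median identity of 87.7% among Ty1 and 97% among Ty2, and identical in the Ty3 pair), so that they do not count as separate cases. The lowest identity of a Ty1 pair was 48.3%, and that of the Ty4 pair was 47.7%. The rows of YAR009C (Ty1) and YJL113W (Ty4) start past the annotated Gag ORF. Their windows therefore lie inside the element and do not cover its 5′ LTR, though both are counted among the 35. The start codon lay in the annotated 5′ LTR for 19 of 21 Ty1 and 8 of 8 Ty2 ORFs.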

How the data were processed

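RNA of 6 strains with 3 biological replicates each was sequenced as 76-base paired-end reads after a stranded mRNA protocol. By the submitters' notes and the study's methods, the authors used TopHat2 2.0.10 with Bowtie2 2.0 for alignment to sacCer3, HTSeq for reads per gene, and edgeR 3.6.2 and limma 3.20.4. How HTSeq was set for strand and for reads with several matches is not given in the sources used here. The deposited signal is CPM per gene, scaled by the authors to effective library sizes, not logged and not pooled. In every library 100% of the values were whole multiples of 1 read (tolerance 0.01 reads), which gave the reads behind each value. A value of 0 allows up to 3 reads, or 0.256 to 0.603 CPM, for counting error only. The table held 5830 genes, and 4 emptied lines were not analysed here.

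Tests used limma 3.58.1 (trend, log2(CPM + 1)) in R 4.3.3, in 1 fit of all 18 libraries, over the 5786 genes that reached 1 CPM in 3 or more libraries. Benjamini-Hochberg adjustment was done separately for each of 11 comparisons and 2 interactions. Calls needed an adjusted p below 0.1 and a 1.5-fold change, as in the study's methods. edgeR 4.0.16 and DESeq2 1.42.0 were run on the recovered reads as alternatives. The fit was tested on simulated data. The other alternatives were pseudocounts of 0.25 and 5, no filter, a filter at 5 CPM, median-of-ratios scaling, only the compared strains, array weights, an adjusted p under 0.05, the replicate number as a block and each library left out. Chosen after seeing the data were the fit without 2 libraries, the 200-base windows, the family sums over ORFs with at least 10% unique windows, without YLR227W-B or within pairs of libraries, and the highest means without ioc3ΔcHLB yaf9Δ replicate 1.

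Members, comparisons and gene lists were chosen with earlier results of these data known. The study itself drew a transposition theme from these samples for ioc3ΔcHLB yaf9Δ, so the direction there is not independent evidence. Named ORFs were all of families with up to 5 measured ORFs, the 3 highest of Ty1 and Ty2, and up to 5 called each way per comparison with a mean of at least 1 CPM. For host lists, up to 4 called genes per comparison were named. Ty ORFs given values outside this rule were chosen after their values were seen. Family membership, positions, LTRs and tRNA genes came from the RefSeq annotation of R64, with which 5634 genes matched by identifier and 196 did not. Unique windows were found by exact search of both strands of that genome, and identity by alignment with edlib 1.3.9.post1.

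Equal replicate numbers were checked for pairing from the correlation of deviations from strain means. Of 15 strain pairs, 2 had every correlation over 0.1: ioc3Δ with WT (0.206, 0.212 and 0.11) and ioc3Δ yaf9Δ with ioc3Δ (0.23, 0.602 and 0.572). The block changed the count of Ty calls in neither.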

Additional observations from a re-analysis of the deposited data

Results flagged for a closer look

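The Ty1 ORF YLR227W-B (chrXII:593438-598706, plus strand) was outside the tested genes and stood at 53.9 CPM in WT replicate 3, from 469 reads, against 0 to 1.02 CPM, or at most 7 reads, in the other 17 libraries. It drew attention as a signal in a row that no comparison used, far above its level in the other libraries. The neighbouring genes had no such value in that library: ADY4 was at 20.5 CPM (14.8 to 20.7 over all libraries), BUR2 at 51.2 CPM (29.2 to 52.8) and ECM22 at 21.8 CPM (21.8 to 65.9). Only 3.52% of its 76-base windows are unique. Without it, the Ty1 sum of WT replicate 3 was 193 CPM in place of 247 CPM. The cause was not tested.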

How the results depend on the processing

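No call changed direction. Of 44 calls of Ty ORFs, 15 were kept in every fit that left out 1 library and 10 in every fit. A pseudocount of 5 kept 24, an adjusted p under 0.05 kept 33, only the compared strains 36, array weights 39, edgeR 43, and DESeq2 and median-of-ratios scaling all 44. With a pseudocount of 5 the counts were 1 for ioc3Δ against WT, 1 for ioc3Δ yaf9Δ against yaf9Δ, 0 for ioc3Δ yaf9Δ against WT, 0 for ioc3ΔcHLB against ioc3Δ and 5 for ioc3ΔcHLB yaf9Δ against ioc3ΔcHLB. With array weights they were 6 for ioc3Δ against WT, 7 for ioc3Δ yaf9Δ against WT, 2 for ioc3ΔcHLB yaf9Δ against ioc3Δ yaf9Δ, 1 for ioc3ΔcHLB against ioc3Δ, 3 for ioc3Δ yaf9Δ against ioc3Δ, and 8 and 2 for the interactions of ioc3Δ and of ioc3ΔcHLB with yaf9Δ. An adjusted p under 0.05 gave 1 for ioc3ΔcHLB against ioc3Δ and 5 for ioc3ΔcHLB yaf9Δ against ioc3ΔcHLB, and only the compared strains gave 1 and 4. DESeq2 gave 1 for ioc3ΔcHLB yaf9Δ against ioc3Δ yaf9Δ and edgeR 2 for ioc3Δ yaf9Δ against ioc3Δ. Without WT replicate 3 and ioc3ΔcHLB yaf9Δ replicate 1 the count against WT was 5. Leaving out 1 library gave 6 to 9 calls for ioc3ΔcHLB yaf9Δ against yaf9Δ, 6 to 11 against WT, 4 to 7 against ioc3ΔcHLB and 0 to 4 against ioc3Δ yaf9Δ, 1 to 5 for ioc3Δ yaf9Δ against yaf9Δ, 2 to 4 against WT and 0 to 2 against ioc3Δ, 2 to 8 for ioc3Δ against WT, 0 to 3 for ioc3ΔcHLB against ioc3Δ and 0 to 1 for the interaction of ioc3Δ and yaf9Δ. The causes were not tested. The replicate block gave 10 calls for ioc3ΔcHLB yaf9Δ against yaf9Δ and 7 against ioc3ΔcHLB and changed no other count.

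Over ORFs with at least 10% unique windows, the log2 ratio of the Ty1 sums was 0.39 for ioc3Δ and 0.44 for ioc3ΔcHLB against WT. Over all Ty1 ORFs, YLR227W-B included, it was 0.14 and 0.065. The Ty1 ORFs at this minimum were YBL005W-B, YMR045C, YNL284C-B and YNL054W-A. Their means were 35.2, 29.4, 13.7 and 6.89 CPM in ioc3ΔcHLB, against 41.5, 33.7, 10.3 and 4.44 CPM in ioc3ΔcHLB yaf9Δ. At this minimum the log2 ratio of Ty4 for ioc3ΔcHLB yaf9Δ was 0.068 against yaf9Δ and -0.21 against WT, and over both Ty4 ORFs 0.22 and -0.03. The planned minimum of 50% unique left only YDR170W-A and gave no family value. The median unique share was 3.43% with 50-base and 15.9% with 200-base windows. Depth limits the low rows: 17 ORFs averaged under 5 CPM, where 1 read is 0.0854 to 0.2011 CPM.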
